A study of Mus musculus with 12 samples.

Results

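MHC class II genes code for the molecules that antigen-presenting cells use to show peptides to CD4+ T cells. Here 10 such genes were followed: H2-Ea, H2-Aa, H2-Ab1, H2-Eb1, H2-DMa, H2-DMb1, H2-Oa, H2-Ob, Cd74 and Ciita. They were chosen by symbol from the array's annotation, because H2-Ea had differed greatly between mice that kept a single Stat5a allele and mice that kept a single Stat5b allele, and the question was whether the other class II genes shared that step. The H2-Ea values in that comparison chose the genes and are therefore given as a description, without a test. The annotation gave these genes 22 of the 45101 probe sets on the array, 19 of them naming 1 gene and 3 naming several. All 10 were on the array, but H2-DMb1 had no probe set of its own: 2 probe sets name H2-DMb2 and H2-DMb1 together, and are given as the H2-DMb pair, whose share from each gene is uncertain. The other 9 genes each had a probe set past the filter on low signal (mean over the 12 arrays of at least log2 6.04), as had 20 of the 22 probe sets.

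The tissue was mammary gland of 12 mice taken 6 days after a mating plug, in early pregnancy, with 3 mice in each of 4 genotypes that differ in their intact alleles of Stat5a and Stat5b, the transcription factors that relay prolactin signals in mammary epithelium. The genotype labelled Stat5a-/- has 0 Stat5a and 2 Stat5b alleles, and Stat5ab+/null has 1 of each. Stat5abnull/Stat5b-, called single-Stat5a here, keeps 1 Stat5a allele and 0 Stat5b alleles, and Stat5abnull/Stat5a-, called single-Stat5b, keeps 1 Stat5b allele and 0 Stat5a alleles. All mice were of a mixed C57BL/6, FVB and 129 background, all carry lost Stat5 alleles, the labels give no age, and wild-type tissue was not analysed here. The treatment text speaks of Mx1-Cre and PolyIC, and the labels leave unsaid if these animals received an injection. Nor do the labels say how independent the mice of a group are, so p-values measure only the spread between these samples.

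A class II molecule is a pair of an α and a β chain: H2-Aa with H2-Ab1, and H2-Ea with H2-Eb1. Cd74, the invariant chain, escorts newly made pairs and fills their groove, H2-DM (H2-DMa with an H2-DMb chain) exchanges the remnant of Cd74 for peptide, and H2-O (H2-Oa with H2-Ob), found mostly in B cells, restrains H2-DM. Ciita is the coactivator that switches the whole group on, through the X and Y boxes that these promoters share and that RFX and NF-Y bind. Dendritic cells, macrophages and B cells are the usual class II-positive cells of the mammary gland. H2-Ea is a special member: mouse haplotypes differ in whether it works, the C57BL/6 copy being silenced by a deletion at its promoter, and the mouse gene table used here lists it as a transcribed pseudogene. The MHC haplotype of these mice was not analysed here.

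The promoters show a feature that several of these genes share. RefSeq promoters of build GRCm38.p6 were at hand for 6 of the 10 genes, 7 promoters in all, and 4 of these genes carry the same pair of short motifs in the 250 bases before the start. The 150 bases just before the start are printed 5′ to 3′ in the direction of the gene, with GCAAC, letters found in the X box, in capitals. ATTGG, the core of the Y box, which reads CCAAT on the opposite strand, is in capitals too. The windows are H2-Aa at chr17:34287824-34287973 on the minus strand, H2-Eb1 at chr17:34305717-34305866, H2-Oa at chr17:34092229-34092378 and H2-Ob at chr17:34238755-34238904, the last 3 on the plus strand.
H2-Aa: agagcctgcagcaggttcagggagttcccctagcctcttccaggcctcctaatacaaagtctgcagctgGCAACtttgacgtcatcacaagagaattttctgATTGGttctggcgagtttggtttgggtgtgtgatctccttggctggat
H2-Eb1: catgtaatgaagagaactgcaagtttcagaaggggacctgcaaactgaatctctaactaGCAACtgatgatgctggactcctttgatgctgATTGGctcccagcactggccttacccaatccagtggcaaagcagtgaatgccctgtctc
H2-Oa: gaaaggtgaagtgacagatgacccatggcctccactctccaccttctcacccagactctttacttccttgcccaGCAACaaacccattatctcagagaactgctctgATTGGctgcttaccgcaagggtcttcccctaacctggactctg
H2-Ob: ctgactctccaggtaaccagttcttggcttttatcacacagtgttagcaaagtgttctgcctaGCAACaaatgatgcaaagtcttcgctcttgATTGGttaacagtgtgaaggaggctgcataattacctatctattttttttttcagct
The gap between the capitals was 28 bases in H2-Aa, 27 in H2-Eb1, 28 in H2-Oa and 25 in H2-Ob, so the pair sits at nearly the same spacing in a classical α chain, a classical β chain and both chains of H2-O. Of 32851 mouse promoters searched the same way, 289 (0.88%) hold GCAAC followed by ATTGG within 50 bases, while GCAAC alone is in 29.9% and CCAAT alone in 33.8% on either strand. The motifs were picked after these promoters had been read, and a match describes the letters only. The pair was not found in the windows of H2-DMa and H2-DMb1, and H2-Ea, H2-Ab1, Cd74 and Ciita had no entry. The search took exact letters only, so a missing pair does not show that a promoter lacks an X or Y box.

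The arrays formed 2 sets that follow the total of intact alleles: Pearson r between arrays over probe sets was 0.948 to 0.994 within a set and 0.818 to 0.883 across sets. The actin control's 3' minus 5' signal was 0.133 to 0.267 on the 2-allele arrays and 2.16 to 3.78 on the 1-allele arrays. Set and allele total cannot be told apart, so genotypes are compared within a set only. One Stat5a probe set was higher in single-Stat5a (12.21 ± 0.34 log2, SD, n = 3) than in single-Stat5b (10.98 ± 0.11). The other Stat5a probe set differed by -0.24 (single-Stat5b minus single-Stat5a). Its means there, 5.29 in single-Stat5a and 5.05 in single-Stat5b, lay under the filter level, so no direction is read from it. Both Stat5b probe sets (0.20 and 0.64) differed in the direction of the labels without passing. Between the 2-allele genotypes, both Stat5a and both Stat5b probe sets differed against the allele numbers in the labels without passing the test (0.39, 0.56, -0.31 and -0.25 log2), so the group is called the arrays labelled Stat5a-/-.

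H2-Ea, the α chain of the H2-E molecule, was dim in single-Stat5a mice and bright in the other 3 genotypes. On its brighter probe set (1422892_s_at) the single-Stat5a arrays read 5.90, 4.47 and 5.34 log2 and the single-Stat5b arrays 12.88, 12.83 and 13.35. The arrays labelled Stat5a-/- read 13.24, 13.40 and 13.82 and the Stat5ab+/null arrays 13.28, 13.89 and 13.22. The 3 single-Stat5a arrays thus stood apart from the other 9 by several log2 units, and all 3 lay under the filter level of 6.04. The difference between the single-allele genotypes was 7.78 log2 (SE 0.32, 95% interval 7.08 to 8.49), or 220.5-fold. Since the single-Stat5a arrays lay under the filter level, their values may not be above background and this fold is not exact. Set against the filter level itself, the single-Stat5b mean was 6.98 log2 higher, so at least 125.9-fold on this probe set. The filter level is a percentile of probe set means and not a measured background. A second probe set (1422891_at) read 6.11, 5.02 and 5.15 in single-Stat5a and 11.26, 11.35 and 11.73 in single-Stat5b. The 6.11 lay just above the filter level. Its difference was 6.02, or 64.9-fold, smaller than on the brighter probe set and likewise not exact. The third (1426202_at) gave no H2-Ea signal to read, lying at 3.33 to 3.85 on all 12 arrays.

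The question of the comparison was whether the other class II genes took the same step, and in their measured values they did not. The H2-Ea difference of 7.78 was the highest of all 14198 genes, so no other gene could match its size. Over the 9 genes measured, H2-Ea was the 1 above 0 and the other 8 lay below 0 (single-Stat5b minus single-Stat5a), with a median of -0.50 log2 beside -0.027 over all 14198 genes, of which 54.1% lay below 0. H2-Ea, past the limma threshold by the way the genes were chosen, was the 1 member counted higher, and 0 were counted lower, where 2.18% of all genes were called (0.817% higher and 1.37% lower). Groups did not overlap for H2-Ea on the high side and for H2-Aa, H2-Ab1 and Ciita on the low side, where 10.9% of all genes did not overlap (4.63% higher and 6.26% lower). The comparison chose the genes, so nothing is read from these counts. Of the 16 probe sets of the other members that name 1 gene, 14 lay below 0, with differences from -2.34 to 0.30.

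**Figure D1:**
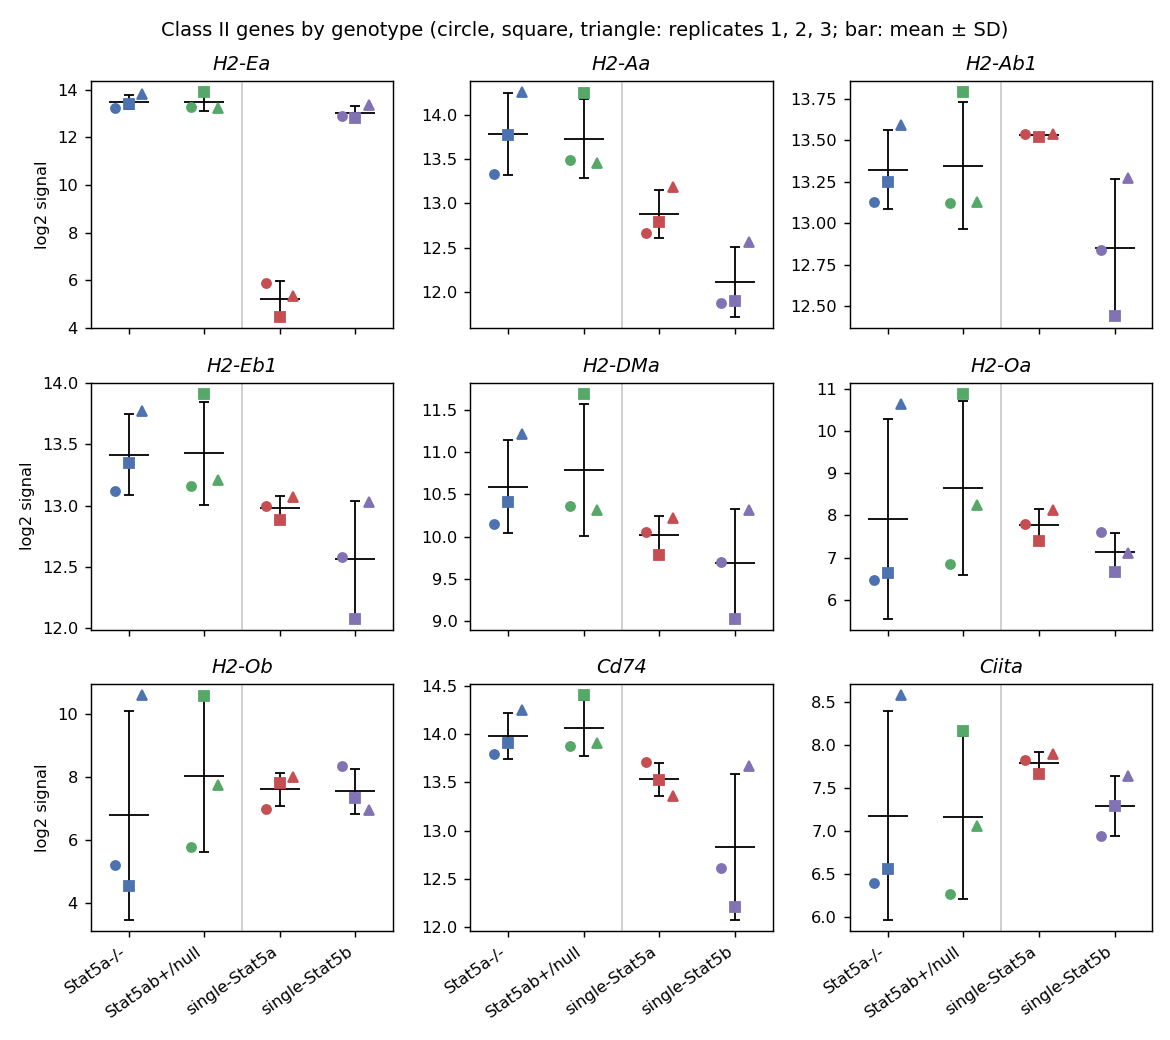
Log2 signal of the 9 class II genes with a probe set of their own, by genotype, each point 1 array, with the mean of 3 arrays and its SD as lines. H2-Ea drops to between 4.47 and 5.90 in single-Stat5a, while H2-Aa, H2-Ab1, H2-Eb1 and Cd74 stay above 11 on all 12 arrays.

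H2-Eb1, the β chain that pairs with H2-Ea, stayed bright where H2-Ea was dim. It read 13.00, 12.88 and 13.07 in single-Stat5a and 12.58, 12.08 and 13.03 in single-Stat5b. The groups overlapped, since the highest single-Stat5b array lay among the single-Stat5a arrays. The difference was -0.43 log2 (SE 0.27, 95% interval -1.01 to 0.16), small and opposite in sign to the step of its partner chain.

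The H2-A chains were likewise bright in both single-allele genotypes. H2-Aa read 12.67, 12.79 and 13.18 in single-Stat5a and 11.88, 11.90 and 12.57 in single-Stat5b, a difference of -0.76 (SE 0.29, 95% interval -1.39 to -0.14). The single-Stat5b arrays all lay below the single-Stat5a arrays, without reaching a call among the genes. The other 3 H2-Aa probe sets disagreed in size: 1452431_s_at differed by 0.013, 1438858_x_at by -1.36 and the dim 1443783_x_at by -2.34. The last 2 were the only probe sets called lower among the members when each probe set was tested alone, a fit that called 2.70% of 45037 probe sets. H2-Ab1 was almost constant in single-Stat5a at 13.54, 13.52 and 13.54, and read 12.84, 12.44 and 13.27 in single-Stat5b. Its difference was -0.68 (SE 0.24, 95% interval -1.20 to -0.16). Of its other probe sets, 1451721_a_at differed by -1.23 and 1425477_x_at by 0.30, so the probe sets of H2-Ab1 did not give 1 direction.

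Cd74, the invariant chain, read 13.71, 13.52 and 13.36 in single-Stat5a and 12.61, 12.21 and 13.67 in single-Stat5b. The third single-Stat5b array lay with the single-Stat5a arrays and the other two below them. The difference was -0.70 (SE 0.31, 95% interval -1.37 to -0.029). Without that array Cd74 differed by -1.12 and H2-Ab1 by -0.89, and both then passed, when 896 genes in all were called in place of 310. Without the second single-Stat5b array, the lowest for these genes, the differences were smaller, at -0.39 for Cd74, -0.48 for H2-Ab1, -0.18 for H2-Eb1 and -0.0094 for H2-DMa, and none passed. The size of the differences of these genes thus depended on which single-Stat5b mouse was left out.

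The peptide exchange genes among the members lay below 0 on each of their probe sets, and none was called. H2-DMa read 10.06, 9.78 and 10.22 in single-Stat5a and 9.70, 9.03 and 10.32 in single-Stat5b, with overlapping groups and a difference of -0.34 (SE 0.40, 95% interval -1.21 to 0.54). Its dimmer probe set differed by -0.41, with the single-Stat5b arrays all lower. The brighter probe set of the H2-DMb pair read 9.42, 9.28 and 9.50 in single-Stat5a against 8.74, 8.24 and 9.97 in single-Stat5b. Its difference was -0.42. The other probe set of the pair differed by -0.79, again with the single-Stat5b arrays all lower. H2-DMb2, not a member, has a probe set of its own, which differed by 0.33 (95% interval -1.70 to 2.37). As with H2-Ab1, H2-Eb1 and Cd74, the highest single-Stat5b array for H2-DMa and the H2-DMb pair was the third.

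H2-Oa, a chain of the H2-DM inhibitor, read 7.79, 7.40 and 8.14 in single-Stat5a and 7.60, 6.66 and 7.12 in single-Stat5b, a difference of -0.65. H2-Ob read 7.00, 7.82 and 8.01 against 8.34, 7.35 and 6.95, a difference of -0.061. The ranges of both groups overlapped for H2-Oa and for H2-Ob. The pooled intervals are wide here (-2.91 to 1.60 for H2-Oa and -3.02 to 2.90 for H2-Ob), because the spread is shared with the 2-allele arrays, where these genes varied most. In a fit of the single-allele arrays alone the SE fell from 1.04 to 0.31 for H2-Oa and from 1.37 to 0.39 for H2-Ob, and neither passed.

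Ciita, the coactivator of the group, showed no step like that of H2-Ea. It read 7.83, 7.66 and 7.90 in single-Stat5a and 6.94, 7.29 and 7.64 in single-Stat5b, a difference of -0.50 (SE 0.53, 95% interval -1.65 to 0.65). The single-Stat5b arrays were all lower, by a small margin. Its other probe sets differed by -0.50 (1421211_a_at) and -0.13 (1421210_at), with overlapping groups. An H2-Ea-sized difference lay outside the 95% interval of every other member measured. The H2-Ea difference chose the genes and was the highest of all genes tested, so nothing is read from this.

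**Figure D2:**
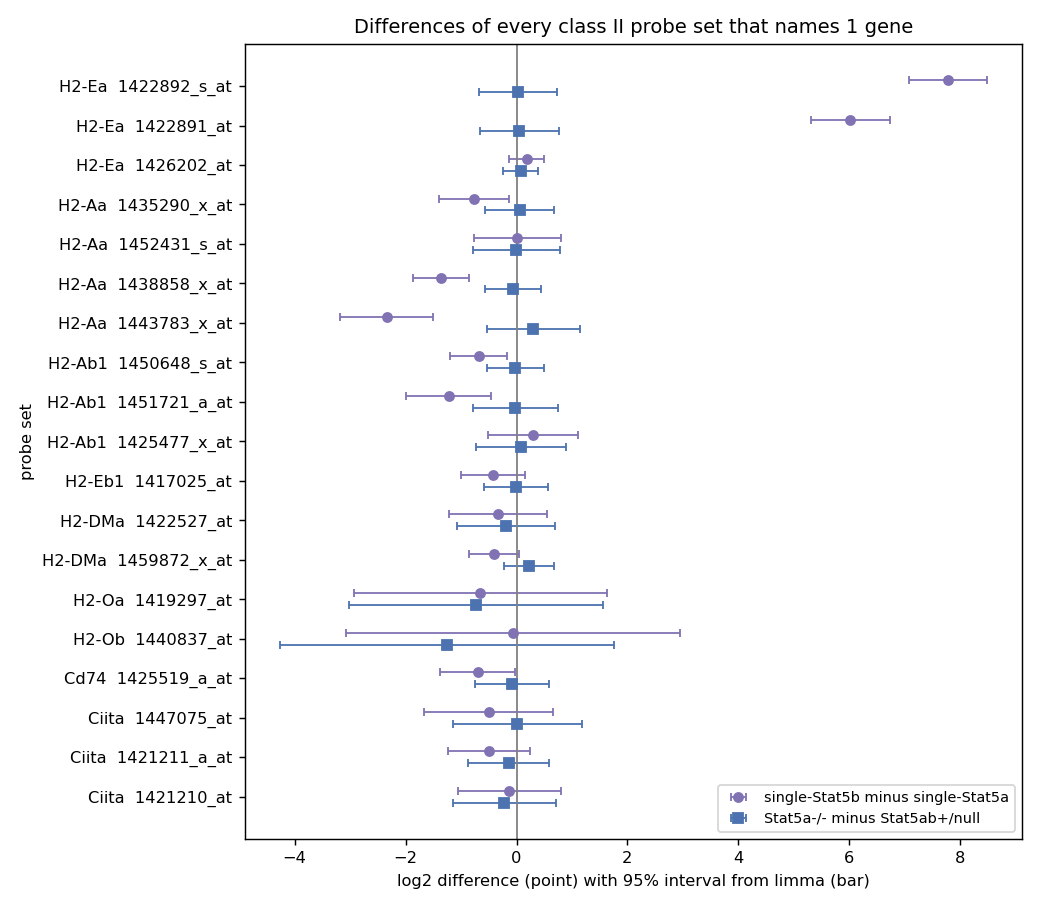
Log2 difference (horizontal axis) of each of the 19 class II probe sets that name 1 gene, within each array set, with its 95% interval from the limma fit over every probe set. The brighter H2-Ea probe sets stand at 7.78 and 6.02 between the single-allele genotypes and near 0 between the 2-allele genotypes, and the probe sets of the other members lie between -2.34 and 0.30 in the first comparison.

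The second comparison, Stat5a-/- minus Stat5ab+/null at the same allele total, was not used to choose the genes. No member passed in it: 0 of 9 genes and 0 of 19 probe sets were called by limma with Benjamini-Hochberg adjustment (adjusted p = 1 for each of the 9), 0 had an unadjusted p under 0.05, and in 0 did the groups not overlap. Over all genes the background was 0.00704% called (1 of 14198), 3.01% with an unadjusted p under 0.05 and 19.1% with groups that did not overlap (5.49% higher and 13.6% lower). Over every probe set the share called was 0.00666%. For a single gene, the smallest p an exact permutation of 3 and 3 arrays allows is 0.1.

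H2-Ea was equally bright in both 2-allele genotypes, differing by 0.025 log2 (95% interval -0.68 to 0.73). H2-Aa read 13.33, 13.77 and 14.25 on the arrays labelled Stat5a-/- and 13.49, 14.24 and 13.46 on the Stat5ab+/null arrays, a difference of 0.056. H2-Ab1 read 13.13, 13.25 and 13.59 against 13.12, 13.79 and 13.13, a difference of -0.023. The 4 α and β chains thus had nearly the same group means, with overlapping arrays. H2-Eb1 differed by -0.014, Cd74 by -0.078 and H2-DMa by -0.19. The interval of H2-Ea does not reach a difference of the size seen between the single-allele genotypes. The interaction, the first difference minus the second, was 7.76 (SE 0.46) for H2-Ea. It holds the comparison that chose the genes and is nearly all made of it, so it too is a description: of the 9 members, H2-Ea was the 1 counted past the threshold, beside 0.775% of all genes (0.38% higher and 0.394% lower), and nothing is read from that count.

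H2-Oa, H2-Ob and Ciita varied more between mice of 1 genotype than between genotypes. H2-Ob read 5.20, 4.55 and 10.60 on the arrays labelled Stat5a-/- and 5.78, 10.59 and 7.75 in Stat5ab+/null. One mouse in each genotype was far above the others, Stat5a-/- 3 and Stat5ab+/null 2. H2-Oa read 6.48, 6.64 and 10.65 against 6.84, 10.88 and 8.24, high in the same mice. Ciita read 6.40, 6.56 and 8.58 against 6.27, 8.16 and 7.06, again with these mice highest. From lowest to highest within a genotype, H2-Ob spanned 6.04 and 4.80 log2 in the 2-allele genotypes but 1.00 and 1.39 in the single-allele ones, and H2-Oa 4.17 and 4.04 against 0.74 and 0.94. H2-Ab1, by contrast, spanned 0.46 and 0.67 in the 2-allele genotypes. Over the 19 probe sets naming 1 gene, Stat5a-/- 3 or Stat5ab+/null 2 was the highest of its genotype in 37 of 38 cases. These are repeated readings of 9 genes, with the H2-Ea probe set that gave no signal among them. The share over all probe sets was not counted.

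The differences of these 3 genes moved with the mouse left out. H2-Ob differed by -1.26 (95% interval -4.22 to 1.71), by -3.16 without Stat5a-/- 3, by 0.018 without Stat5ab+/null 2, and by -1.89 without both. H2-Oa differed by -0.72 (95% interval -2.98 to 1.53), by -2.09 without Stat5a-/- 3, by 0.39 without Stat5ab+/null 2, and by -0.97 without both. Ciita differed by 0.015, by -0.69 without Stat5a-/- 3, by 0.51 without Stat5ab+/null 2, and by -0.19 without both. Other mice moved H2-Ob too: it differed by -0.14 without Stat5a-/- 2 and by -2.38 without Stat5ab+/null 1. The sign or size of these differences thus depended on which mouse was left out.

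Markers of several other cell types moved with these genes, those of B cells by the most. The mean log2 signal of the 10 B cell markers measured (of 12 listed, with Cd79a and Ms4a1 among those measured) was 7.16, 6.96 and 11.3 on the arrays labelled Stat5a-/- and 8.02, 11.7 and 9.11 in Stat5ab+/null. The same mice were high as for H2-Oa, H2-Ob and Ciita. The T cell list mean (7 of 10 measured) was also highest in these mice, at 6.46, 6.37 and 7.85 against 6.50, 9.06 and 6.71, as was the skeletal muscle list mean (8 of 8), at 6.60, 6.50 and 10.2 against 6.69, 9.09 and 6.27. No T cell or muscle marker was called in the 2-allele comparison, where 0.00704% of all genes were called, so nothing is read from that. In the single-allele genotypes the B cell list mean was 6.51 to 7.25 and 6.48 to 7.27, with 5 and 4 of the 10 markers at a group mean under the filter level. The B cell markers themselves did not pass in the 2-allele comparison: 0 of 10 were called, all 10 lay below 0, and their median was -1.23. There 0.00704% of all genes were called and 66.4% lay below 0. In bulk tissue, fewer cells of a type and less RNA per cell cannot be told apart.

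With the B cell list mean of each array as a covariate, the SE of the 2-allele difference fell from 1.37 to 0.28 for H2-Ob, from 1.04 to 0.20 for H2-Oa and from 0.53 to 0.25 for Ciita. The differences were then 0.23, 0.41 and 0.55, and none passed. The H2-Ea difference between the single-allele genotypes was 7.78 with this covariate, and 7.79 with the 3' minus 5' actin signal as the covariate. The B cell list mean was alike in single-Stat5a (6.51 to 7.25) and single-Stat5b (6.48 to 7.27). That covariate could therefore hardly move this difference, which also chose the genes, so nothing is read from these values. The part of cell types and of RNA quality in it was not tested. Between the single-allele genotypes the B cell list had 5 markers above and 5 below 0.

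**Figure D3:**
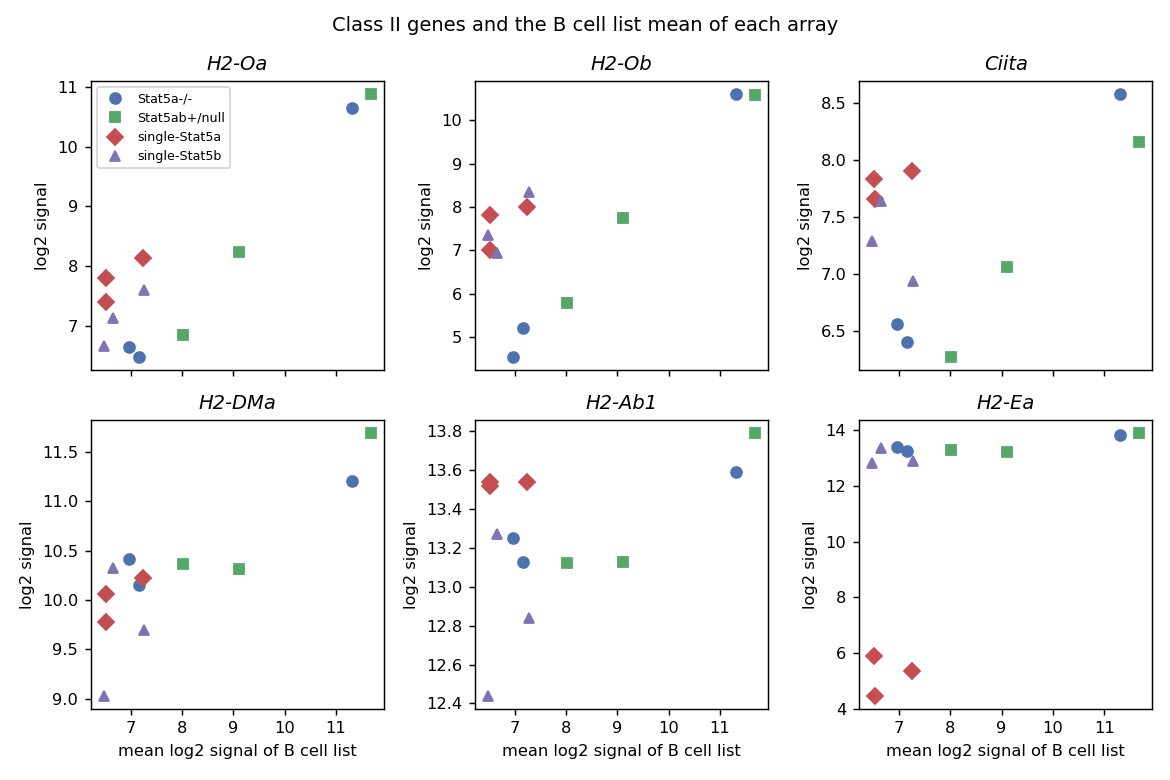
Log2 signal of H2-Oa, H2-Ob, Ciita, H2-DMa, H2-Ab1 and H2-Ea (vertical axis) against the mean log2 signal of 10 B cell markers (horizontal axis), 1 point per array, coloured and shaped by genotype. Stat5a-/- 3 and Stat5ab+/null 2, with B cell means of 11.3 and 11.7, are the highest arrays of their genotypes in all 6 genes.

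Other class II-positive cells showed smaller spans. The dendritic cell list mean (11 of 13 measured) was 8.55 to 9.07 on the arrays labelled Stat5a-/-, 8.66 to 9.72 in Stat5ab+/null, 8.25 to 8.46 in single-Stat5a and 8.01 to 8.82 in single-Stat5b. The macrophage list mean (11 of 12) was 10.7 to 11.0, 10.7 to 11.3, 11.2 to 11.3 and 10.8 to 11.5 in the same order. No dendritic cell or macrophage marker was called in either comparison, where 2.18% (single-allele) and 0.00704% (2-allele) of all genes were called. The skeletal muscle list differed most of the lists between the single-allele genotypes, with all 8 genes below 0 and a median of -2.38, none called; its list mean was 10.1 to 13.9 in single-Stat5a and 7.92 to 11.1 in single-Stat5b. Luminal epithelial signal, which checks the labelled tissue, was 10.4 to 12.1 over the 12 arrays. The part of these cell types in the class II values was not tested.

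The wider class II pathway gave no call in either comparison, where 2.18% (single-allele) and 0.00704% (2-allele) of all genes were called. Of 30 genes listed for class II control, peptide processing and co-stimulation, 24 were measured. Between the single-allele genotypes 15 lay above and 9 below 0, with a median of 0.041. The largest differences were Ifngr1, a chain of the interferon gamma receptor, at -0.55, the co-stimulator Cd86 at -0.47, the endosomal protease Lgmn at 0.39 and Cd40, the receptor for T cell help, at -0.36. The RFX subunits, which bind the X box, were close to 0, with Rfx5 at 0.036, Rfxank at 0.16 and Rfxap at 0.037. Between the 2-allele genotypes 3 lay above and 21 below 0 (66.4% of all genes lay below 0), with a median of -0.17. The largest there were H2-DMb2 at -0.94, Cd83 at -0.83, Tgfb1 at -0.83 and Cd40 at -0.48. H2-DMb2 varied widely between mice, with an SD of 2.27 on the arrays labelled Stat5a-/- and 1.41 in Stat5ab+/null. The 95% interval of its difference was -2.97 to 1.09.

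Interferon gamma is the main inducer of Ciita outside B cells and dendritic cells, and its response genes were listed too. Of 16 measured, 15 lay below 0 between single-Stat5b and single-Stat5a, with a median of -0.35, where 54.1% of all genes lay below 0. An unadjusted limma p under 0.05 was found for 7, beside 11.6% of all genes. For 5 the groups did not overlap on the low side, beside 6.26% of all genes. The T cell chemokine Cxcl9 was the 1 that passed, where 2.18% of all genes were called. It stood at 10.82 ± 0.12 log2 (SD, n = 3) in single-Stat5a and 9.82 ± 0.11 in single-Stat5b, a fall of 1.00. Between the 2-allele genotypes all 16 lay below 0, with a median of -0.23 and none called. There 66.4% of all genes lay below 0 and 0.00704% were called. These medians ran the same way as that of the class II members between the single-allele genotypes, and a relation between them was not tested.

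H2-Ea lies in the class II region of chromosome 17, with H2-Eb1, H2-Aa and H2-Ab1 as near neighbours on one side and Btnl2, a butyrophilin-like gene, next on the other. Of the 33 genes other than members within 20 genes on each side, 18 were measured and 0 were called in either comparison. Of all genes 2.18% were called between the single-allele and 0.00704% between the 2-allele genotypes, so nothing is read from that count. Between the single-allele genotypes 9 lay above 0 (54.1% of all genes lay below 0), with a median of 0.012. Their differences ran from -0.78 to 0.79, so none of these measured neighbours had a difference of the size seen at H2-Ea. That size was the highest of all genes tested, so no neighbour could have matched it. The genes between Btnl2 and Notch4 were not measured past the filter. Btnl2, given for its place beside H2-Ea, differed by -0.74 (95% interval -1.29 to -0.19). Between the 2-allele genotypes 3 of the 18 lay above 0, with a median of -0.19, where 66.4% of all genes lay below 0.

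**Figure D4:**
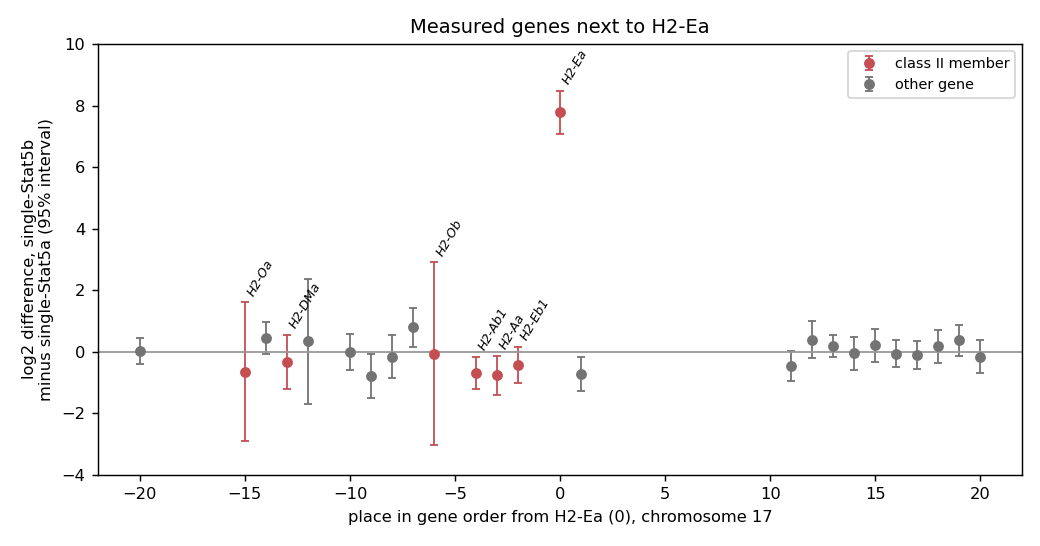
Log2 difference between single-Stat5b and single-Stat5a with its 95% interval for each measured gene within 20 places of H2-Ea, in gene order (place 0 is H2-Ea, no distances are drawn). H2-Ea stands at 7.78 and the neighbours that are measured lie between -0.78 (Tap1) and 0.79 (Tap2).

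The genes whose pattern was most like that of H2-Ea lay outside the class II group. Likeness was the Pearson r over 12 arrays after each array set's mean was taken out of every gene, given as a description. The closest were Ifi202b, an interferon-inducible gene (0.994), AI506816 (0.985), Ccnb1ip1 (0.984), Thumpd1 (0.982) and Polr3gl (0.977). Ifi202b stood at 5.60 log2 in single-Stat5a and 11.35 in single-Stat5b, and at 11.96 and 12.08 in the arrays labelled Stat5a-/- and in Stat5ab+/null, so it was low in the same genotype as H2-Ea. Thumpd1 had another order of levels, with 11.38 in single-Stat5b and 9.67 to 9.76 in the other genotypes. H2-Ab1 was most like its fellow class II gene H2-Eb1 (0.950), then Abcg3 (0.942), Sp100 (0.941), Hapln3 (0.937) and Irf7 (0.936). Ciita was most like Ms4a4c (0.972), Haao (0.935), Ifi209 (0.930), Icosl (0.929) and the class II gene H2-Oa (0.924). H2-Ea was absent from the 5 genes most like H2-Ab1 and Ciita, and no class II gene was among the 5 most like H2-Ea. With set means taken out, the pattern of H2-Ea is nearly all the step that chose the genes. Nothing further is therefore read from these absences.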

How the data were processed

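Biotin-labelled cRNA of mammary tissue from 12 mice was hybridized to Affymetrix mouse arrays, per the labels' protocols. Each deposited value is the log2 signal of 1 probe set. RMA and Partek stand in the submitters' processing notes, with versions not given in the sources used here. Depth has no counterpart on arrays, and the 3 arrays per genotype limit the precision. Probe sets were named from the platform annotation (34945 name 1 gene, 932 several, 9160 none, 64 are controls). Probe sets under the 30th percentile of means (log2 6.04) were left out and the brightest per gene was kept, which left 14198 genes. Limma 3.58.1 in R 4.3.3 fitted 1 mean per genotype over all 12 arrays, with 2-sided tests, Benjamini-Hochberg adjustment over all genes and a call at an adjusted p under 0.05. Every probe set was also tested alone, without the filter. The script was tested on simulated data.

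The members and gene lists were chosen with earlier results of these data known. The genes named are the members, the 4 pathway genes with the largest difference per comparison, the RFX subunits, called list members, called neighbours of H2-Ea, and the 5 genes most like H2-Ea, H2-Ab1 and Ciita; Btnl2, Tap1, Tap2 and the RFX subunits were added after their values were seen. Alternatives changed the filter, scaling, probe set choice, variance model, samples and covariates; leaving out the 2 arrays with the most B cell signal was chosen after seeing the data. Groups came from genotype labels. Sample descriptions speak of sorted cells, but whole mammary tissue, as in the series design, was taken as the source. Sample titles have the letters ABB where the genotype is Stat5a-/- and AAB where it is Stat5ab+/null, which may not match the allele numbers.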

Additional observations from a re-analysis of the deposited data

Results flagged for a closer look

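H2-Ea differed between the comparisons themselves. It stood 7.78 log2 higher in single-Stat5b than in single-Stat5a and 0.025 higher on the arrays labelled Stat5a-/- than in Stat5ab+/null, and the interaction term of the limma fit was 7.76 (SE 0.46). The first of these values chose the gene and makes up nearly all of the interaction, which is therefore a description with no test.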

How the results depend on the processing

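The difference of H2-Ea between the single-allele genotypes, which chose the genes and is a description only, ranged from 6.90 to 8.12 over 24 alternatives. The genes called in that comparison numbered 310, but 1214 over every probe set (members 2), 2228 with array weights (members 4), 157 with only the groups compared, and 232 to 896 (members 1 to 3) with 1 array left out. H2-Ob there was 0.84 with array weights and -0.46 to 0.24 with 1 array left out. Between the 2-allele genotypes 1 gene was called, against 0 with the 50th percentile filter, 3 over every probe set, 202 with array weights, 2 with only the groups compared, 0 without Stat5a-/- 3 and Stat5ab+/null 2, and 0 to 5 with 1 array left out. Member differences there that changed sign were H2-Ab1 0.0065 and H2-Eb1 0.016 after centring; H2-Aa -0.0012, H2-Ab1 0.013, H2-DMa 0.015 and Ciita -0.12 with the mean of probe sets; H2-Ea -0.010 and Ciita -0.25 with array weights; H2-Ab1 0.12, H2-Eb1 0.17, H2-DMa 0.13, H2-Oa 0.41, H2-Ob 0.23 and Cd74 0.038 with the B cell covariate; and H2-Ab1 0.065, H2-Eb1 0.049 and Ciita -0.19 without those 2 arrays. With 1 array left out they ranged from -0.14 to 0.24 for H2-Ea, -0.18 to 0.31 for H2-Aa, -0.16 to 0.20 for H2-Ab1, -0.19 to 0.23 for H2-Eb1, -0.51 to 0.26 for H2-DMa, -2.09 to 0.39 for H2-Oa, -3.16 to 0.018 for H2-Ob, -0.21 to 0.093 for Cd74 and -0.69 to 0.51 for Ciita. The interaction called 110 genes, against 428 over every probe set (members 2), 1580 with array weights, 56 without those 2 arrays, 64 without Stat5a-/- 2 and 199 without single-Stat5b 2. The cause was not tested. No paired analysis was possible because the labels give no replicate numbers that genotypes share. Ciita had no value at the 50th percentile filter.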

Other observations

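The probe set that names Gm20506 and H2-Ob together (1422201_at) read 6.51, 6.57 and 7.64 log2 on the arrays labelled Stat5a-/-, 6.19, 7.54 and 6.95 in Stat5ab+/null, 6.39, 6.04 and 6.74 in single-Stat5a and 5.95, 5.77 and 6.11 in single-Stat5b. Its highest arrays in the 2-allele genotypes were those of the H2-Ob probe set. The brighter H2-DMb pair probe set was also highest in Stat5a-/- 3 and Stat5ab+/null 2, at 12.16 and 12.05. H2-Ea itself read 13.82 and 13.89 on these arrays, the highest of their genotypes.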
